A study of Mus musculus with 23 samples.

Results

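Somatostatin (Sst) and its receptors (Sstr1 to Sstr5) are 6 genes, taken by symbol from a table of 23373 genes and measured in 23 single neurons of the mouse arcuate hypothalamus. The cells were GFP-positive neurons of young adult male mice on a mixed background (vGLUT2-IRES-Cre::loxSTOPlox-L10-GFP). They were picked by hand after dissociation and amplified with SmartSeq2, which copies full-length polyadenylated RNA. In these mice Cre is expressed from the gene of VGLUT2, the vesicular glutamate transporter of excitatory neurons. It removes a stop cassette so that GFP joined to a ribosomal protein is made. The cassette is removed for good, so GFP marks any cell whose lineage has used the driver, and the reporter was carried by every cell studied. There is 1 group without a control. The series title places these cells in a study of excitatory neurons that project from the arcuate to the paraventricular nucleus and induce satiety. Numbers 1 to 23 follow the records. The first 15 cells have titles that start with JCb5.2, and cells 16 to 23 have titles that start with JCb6. The labels name 2 mice but do not tie a cell to a mouse or explain the prefixes.

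Somatostatin is a small peptide hormone and neuropeptide that inhibits secretion and neuronal firing. In the hypothalamus, somatostatin neurons of the periventricular nucleus restrain growth hormone release, and a separate population lies in the arcuate nucleus. Its receptors couple to inhibitory G proteins of the Gi/o class. These lower cyclic AMP by inhibiting adenylyl cyclases, open inwardly rectifying GIRK potassium channels and close presynaptic calcium channels. A receptor on the cell that makes the peptide can act as an autoreceptor. Cortistatin (Cort), a related peptide from another gene, binds the same receptors.

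The peptide and its relative share the receptor-contacting core. The last 14 codons of both precursors are shown because they encode the mature peptide of Sst and its counterpart in Cort, from the GENCODE transcripts, with the 4 codons of the core (phenylalanine, tryptophan, lysine and threonine) in capitals.
Sst: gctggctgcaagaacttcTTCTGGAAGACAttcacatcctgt
Cort: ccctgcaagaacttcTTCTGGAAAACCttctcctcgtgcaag
They lie on the minus strand at chr16:23889732-23889773 (Sst) and chr4:149125267-149125308 (Cort) in mm10. Over the 13 codons that align, 31 of 39 bases were identical (79.5%), and 7 of the 13 codons. Cort reached 1 FPKM in cell 7 alone (7.63 FPKM) and was listed at 0 in the other 22 cells. FPKM counts the fragments of a gene relative to its length and to the size of the library, and 1 FPKM was taken as the threshold for counting a cell.

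All 6 genes are protein coding, and their positions in the deposited table (mm10) were chr16:23889581-23890844 on the minus strand for Sst, chr12:58211804-58216036 on the plus strand for Sstr1 and chr11:113624257-113625636 on the plus strand for Sstr2. Sstr3 was at chr15:78537015-78544345 (minus), Sstr4 at chr2:148395377-148396764 (plus) and Sstr5 at chr17:25489875-25497288 (minus). The coding sequences hold 116 codons for Sst, 391 for Sstr1, 369 for Sstr2, 428 for Sstr3, 385 for Sstr4 and 362 for Sstr5, stop codon not counted. Between receptors, 59.7% (Sstr2 and Sstr4) to 69.8% (Sstr1 and Sstr4) of aligned coding bases were identical. Between Sstr3 and Sstr5, 12 windows of 30 bases were identical, counted at every start position so that windows can overlap, and no other pair shared 1. For Sstr2 the table spans 1380 bp, while the GENCODE gene runs from 113619342 to 113626028, and whether reads of its first exon were counted is not given.

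Depth was uneven. Between 4049 and 8025 genes per cell reached 1 FPKM (median 7079), and relative depth, estimated from the steps between low values, differed up to 4.21-fold between cell 14, the shallowest, and cell 20. Absolute depth is unknown. All 8 neuronal markers were found at 1 FPKM, 6 of them in all 23 cells, as were 1682 of all 23373 genes. Among markers of other cells, 2 of 6 astrocyte, 5 of 6 oligodendrocyte, 3 of 6 microglial, 4 of 6 endothelial and mural, 3 of 5 tanycyte and 1 of 5 pituitary genes were found at 1 FPKM in any cell, against 63.6% of all genes. Of the 5 tanycyte genes, Vim was in 14 cells (highest 258 FPKM), Frzb in 4 (21.3 FPKM) and Col23a1 in 1 (10.2 FPKM). Rax, a defining tanycyte gene, and Crym were listed at 0 in all. The oligodendrocyte gene Mbp was in 10 cells and the haemoglobin gene Hba-a2 in 22, with a median of 105 FPKM. Libraries of 2 cells lacked Y-linked transcripts despite the male label. None of 4 Y-linked genes exceeded 0.143 FPKM in cell 23 or 0.127 FPKM in cell 20, where Xist, the transcript of the inactive X of females, was at 2.69 and 0.596 FPKM. The other 21 cells each had 1 or more Y-linked genes at 1 FPKM, and 4 of them (cells 3, 11, 13 and 19) also had 2.51 to 5.26 FPKM of Xist, so Xist alone does not set cell 23 apart. The shares of cells with Sstr2 and with Sstr3, and the comparison by Kiss1, are given with and without cell 23. Other results include it.

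Sst was very abundant in 4 cells and low in the rest. Cell 15 had 29792 FPKM, which was 5.95% of all FPKM in that cell, cell 14 had 4394 FPKM, cell 9 had 1342 FPKM and cell 2 had 903 FPKM. These 4 cells, at or above 500 FPKM, are called Sst-high. The nearest cell below was cell 12 at 177 FPKM. The other 11 cells of prefix JCb5.2 ranged from 18.6 FPKM in cell 10 to that value, with a median of 41.2 FPKM. In prefix JCb6, Sst was listed at 0 in 7 cells and was at 0.608 FPKM in cell 23. By the threshold of 1 FPKM, Sst was counted in 15 of 15 cells of JCb5.2 (exact Clopper-Pearson 95% interval 78.2 to 100%) and 0 of 8 of JCb6 (0 to 36.9%). Of all genes detected in any cell, 34.8% were found in as many cells or more. The title prefixes did not overlap in Sst, with means of log2(FPKM + 1) of 7.19 and 0.09. Of 14874 genes, 9.2% were higher in JCb5.2 by 1 or more on that scale and 4.27% lower. Of 8 markers of other hypothalamic nuclei, Avp and Oxt also separated the prefixes. Avp was at 571 to 5186 FPKM and Oxt at 322 to 3014 FPKM in JCb6, with at most 2.01 and 30.8 FPKM in JCb5.2. The rest did not: Hcrt reached 1 FPKM in 1 cell of each prefix, and Trh and Fezf1 in 1 JCb5.2 cell each. Nr5a1, Crh and Pmch reached it in no cell. The part of Avp and Oxt in the Sst pattern was not tested. No test was possible, because cells are not replicates and their mice are not given.

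**Figure D1:**
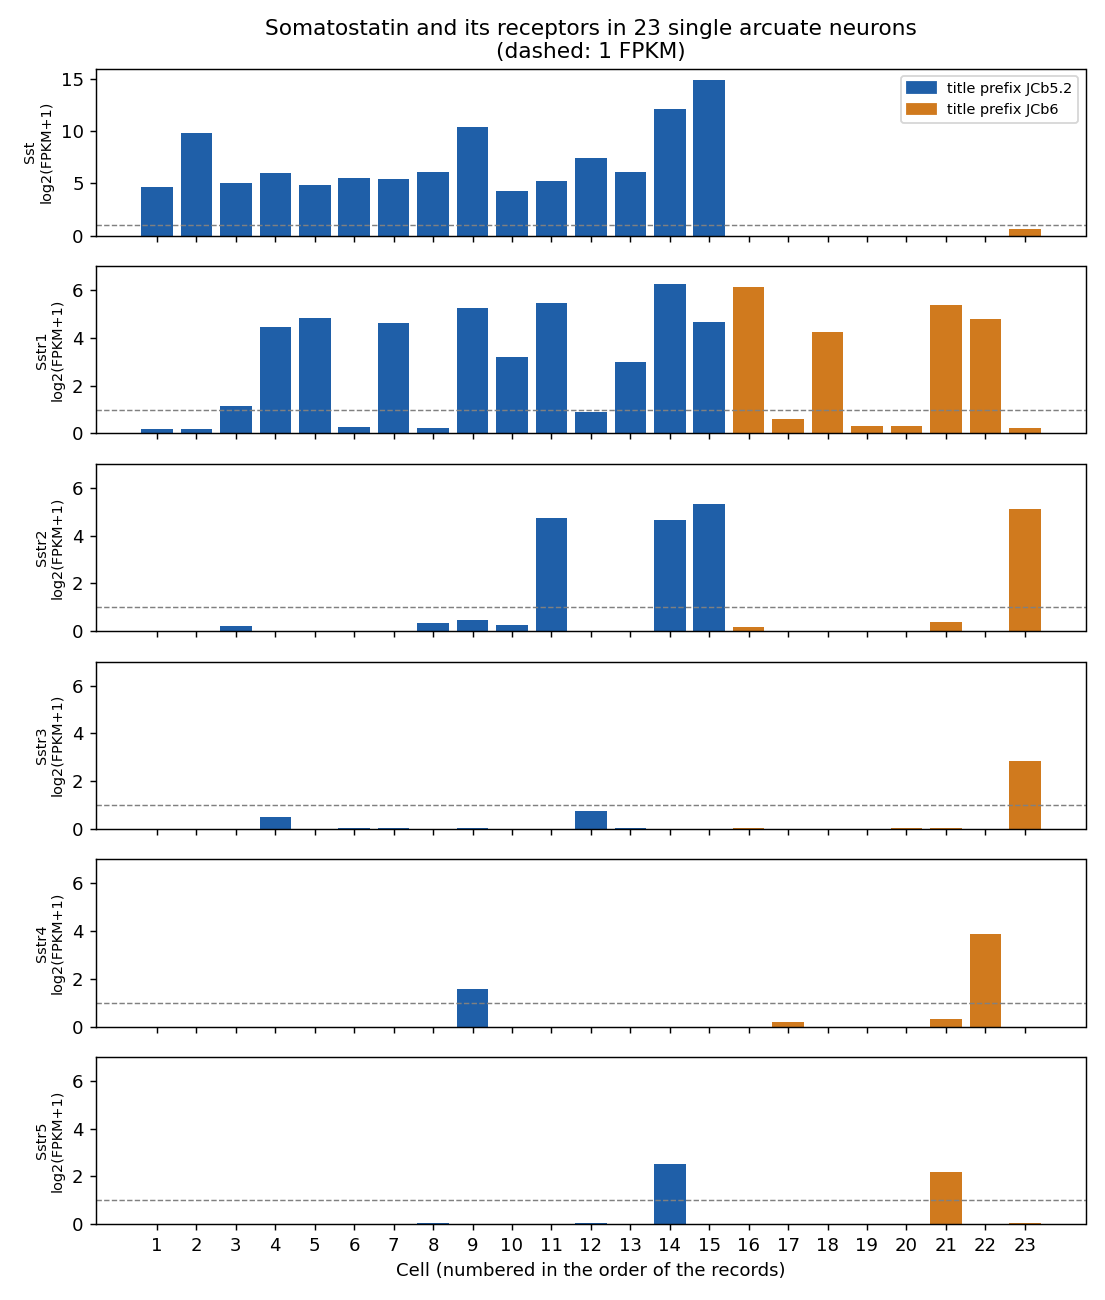
Level of Sst and of the 5 receptors in each of the 23 cells, as log2(FPKM + 1), with bars coloured by title prefix and the dashed line at 1 FPKM; the Sst panel has its own scale. Sst was above the line in every JCb5.2 cell and in no JCb6 cell, Sstr1 in 14 cells of both prefixes, Sstr2 in 4, and Sstr3, Sstr4 and Sstr5 in 1 or 2.

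Low values of Sst in prefix JCb5.2 were similar in size to those that other abundant genes had in the same libraries. Each cell's Sst was expressed as a percent of the Sst summed over the 15 cells. It was set beside an index, the median of the same percent over 9 to 12 other genes with 1 or 2 high cells. Sst-high cells were far above the index: 80.5% against 0.0589% in cell 15, 11.9% against 0.489% in cell 14, 3.62% against 0.115% in cell 9 and 2.44% against 0.128% in cell 2. The other 11 cells held 0.0503 to 0.478% of the summed Sst. The index of the same cells ranged from 0.0382 to 0.724%, and Sst was below the index in 7 of the 11. Cell 12, the highest of them in Sst, also had the highest index. Cell 4 was the farthest above its index, at 0.168% against 0.0382%. Whether these low levels are the cells' own Sst or reads carried over between libraries of a prefix cannot be told apart. Counted at 100 FPKM, a threshold chosen after the data were seen, Sst was in 5 cells (21.7%).

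**Figure D2:**
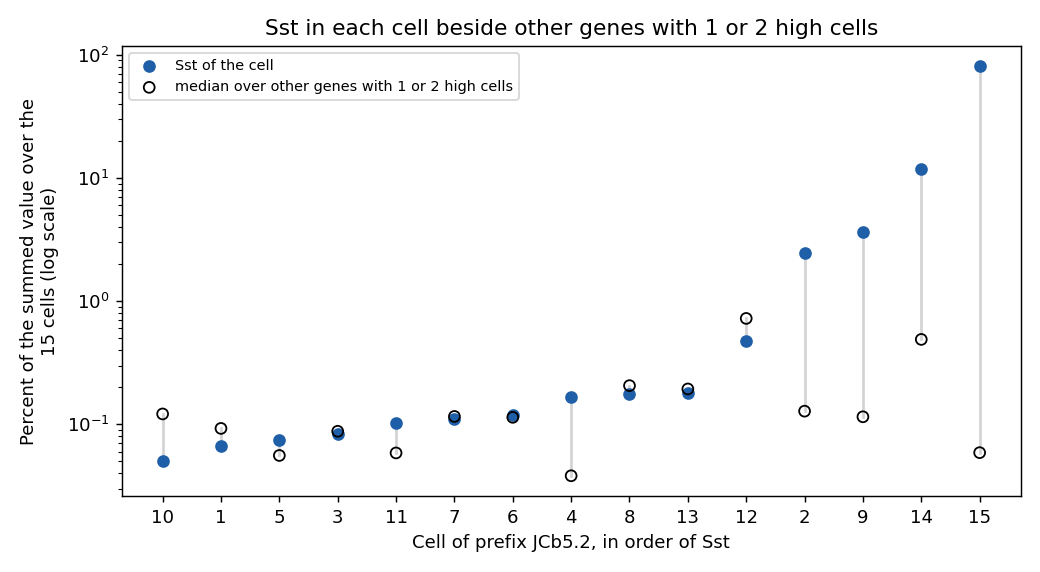
Filled points give the Sst of each JCb5.2 cell as a percent of the Sst summed over the 15 cells, on a log axis, and open points give the median of the same percent over other genes with 1 or 2 high cells. The 4 Sst-high cells lie above their open point by more than an order of magnitude, and 7 of the other 11 lie below theirs.

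The 4 Sst-high cells differed among themselves in the other transmitters and peptides they carried. Slc17a6, which encodes VGLUT2, was at 67.3 FPKM in cell 2, 51.0 FPKM in cell 9, 32.1 FPKM in cell 14 and 4.47 FPKM in cell 15. Gad1, which encodes an enzyme that makes the inhibitory transmitter GABA, ran the other way: 0.435 FPKM in cell 2, 0.480 FPKM in cell 9, 46.7 FPKM in cell 14 and 247 FPKM in cell 15. Gad2, the second such enzyme, was at 0.441, 0.761, 59.2 and 75.8 FPKM in the same order. Cells 2 and 9 thus had the glutamate transporter without the GABA enzymes at 1 FPKM, and cells 14 and 15 had both. Cell 15 alone among them had Slc32a1, the vesicular GABA transporter (15.3 FPKM), and a high level of Npy and Agrp, 2 peptides that stimulate feeding (2660 and 433 FPKM). High Npy was not tied to high Sst, since cell 10 had 2539 FPKM of Npy and the lowest Sst of its prefix.

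Sstr1 was the most often detected receptor. It reached 1 FPKM in 14 of 23 cells, 60.9% (38.5 to 80.3%), 10 of 15 in JCb5.2 and 4 of 8 in JCb6. Of all genes detected in any cell, 37.6% were found in as many cells or more, so such a frequency was common. Cell 14 had the highest level, 74.9 FPKM, followed by 68.7 FPKM in cell 16, 42.4 FPKM in cell 11, 40.0 FPKM in cell 21 and 37.2 FPKM in cell 9. Cells 5, 22, 15, 7, 4 and 18 had 27.3, 26.3, 24.0, 23.9, 20.7 and 17.9 FPKM, and cells 10, 13 and 3 had 8.25, 6.99 and 1.19 FPKM. The 9 remaining cells were between 0.122 FPKM (cell 1) and 0.837 FPKM (cell 12). Sstr1 was therefore close to an on or off pattern, with cell 3 alone between 0.837 and 6.99 FPKM. Unlike Sst, its level did not separate the prefixes: mean log2(FPKM + 1) was 2.97 in JCb5.2 and 2.74 in JCb6.

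Sstr1 was above 0 in all 23 cells, as were 25.6% of genes. In the 5 JCb5.2 cells under 1 FPKM it made up 0.0454 to 0.312% of the Sstr1 summed over the prefix, in each case less than the index of the cell. In the 4 JCb6 cells it made up 0.116 to 0.327%, above the index in 3 of 4. The relative depth of the cells under 1 FPKM had a median of 2.56 times that of the shallowest library (1.59 to 4.21). For the cells with Sstr1 it was 2.23 (1 to 3.27), so the ranges overlapped. The cells under 1 FPKM had fewer genes at 1 FPKM, with medians of 6425 and 7234. The part of depth and of gene number in the Sstr1 pattern was not tested.

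Sstr2, the receptor best known for inhibiting growth hormone and glucagon release, was found in few cells. It was at 39.0 FPKM in cell 15, 33.9 FPKM in cell 23, 25.8 FPKM in cell 11 and 24.1 FPKM in cell 14. Its median over these 4 cells was 29.9 FPKM, against 25.2 FPKM over the 14 cells with Sstr1, whose highest value was larger. The other 19 cells had at most 0.365 FPKM, and 13 of them were listed at 0. This was 4 of 23 cells, 17.4% (4.95 to 38.8%), and 3 of 22 without cell 23 (13.6%). Of genes detected in any cell, 72.2% were found in as many cells or more. Sstr2 lies within an intron of Slc39a11, a zinc transporter gene on the opposite strand. Slc39a11 was at 0.16, 0.57, 4.92 and 0.04 FPKM in cells 11, 14, 15 and 23, and at 18.66 FPKM in cell 19, where Sstr2 was listed at 0. The highest levels of the 2 genes were in different cells. Whether the counting used strand is not given, so reads from where they overlap cannot be told apart.

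The other receptors were rare. Sstr3, a receptor that is enriched in neuronal cilia, was at 6.10 FPKM in cell 23 and at or under 0.662 FPKM elsewhere, so that no cell had it without cell 23. Cells 22 and 9 had 13.7 and 1.94 FPKM of Sstr4, with at most 0.233 FPKM in any other cell and 19 cells listed at 0. Cells 14 and 21 had 4.67 and 3.60 FPKM of Sstr5, with at most 0.0333 FPKM elsewhere and 18 cells listed at 0. Sstr4 and Sstr5 were thus in 2 of 23 cells each, 8.70% (1.07 to 28.0%). Since single-cell amplification loses transcripts, a receptor under 1 FPKM or listed at 0 is not shown to be absent. In order of the number of cells the receptors ran Sstr1, Sstr2, then Sstr4 and Sstr5, then Sstr3. The intervals of Sstr1 and of Sstr3, Sstr4 and Sstr5 do not overlap, while those of Sstr2 to Sstr5 overlap widely. All these shares come from the same 23 cells, so the overlap is a description and not a test.

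Receptor combinations were few. Of 23 cells, 8 had no receptor at 1 FPKM (34.8%, 16.4 to 57.3%), 8 had Sstr1 alone (cells 3, 4, 5, 7, 10, 13, 16 and 18) and 7 had 2 or more receptors (30.4%, 13.2 to 52.9%). Sstr1 was joined by Sstr2 in cells 11 and 15, by Sstr4 in cells 9 and 22, by Sstr5 in cell 21 and by both Sstr2 and Sstr5 in cell 14. Cell 23 had Sstr2 and Sstr3 without Sstr1, and it was the only cell with a receptor and no Sstr1. Sstr4 and Sstr5 were at 1 FPKM only in cells that also had Sstr1. Cells with 2 or more receptors had a median relative depth of 1.59 times that of the shallowest library (1 to 2.50). In cells with no receptor it was 2.80 (1.69 to 4.21), and the part of depth in these combinations was not tested.

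Of the 4 Sst-high cells, 3 had more than 1 receptor. Cell 14 had 3 receptors (Sstr1, Sstr2 and Sstr5), cells 9 and 15 had 2 each (Sstr1 with Sstr4, and Sstr1 with Sstr2), and cell 2 had none. This was 75.0% (19.4 to 99.4%), against 1 of 11 other cells of the same prefix (9.09%, 0.230 to 41.3%) and 4 of 19 other cells in all (21.1%). The intervals overlap. Sst-high cells had 6627 to 7286 genes at 1 FPKM (median 7014) and the other JCb5.2 cells 6373 to 8025 (median 7182). Their relative depth was 1 to 2.56 times that of the shallowest library, which was cell 14, with a median of 2.44, against 1.69 to 3.30 and a median of 2.09. The part of depth in the receptor counts was not tested.

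By gene, Sstr1 was in 3 of 4 Sst-high cells and 7 of 11 others of the prefix (63.6%, 30.8 to 89.1%). Its mean log2(FPKM + 1) was 4.09 and 2.56, a difference of 1.52, and its values overlapped, from 0.148 to 74.9 FPKM against 0.122 to 42.4 FPKM. Sstr2 was in 2 of 4 (interval 6.76 to 93.2%) and 1 of 11, with means of 2.60 and 0.50 and a difference of 2.10. Sstr1 and Sstr2 were thus higher by 1 or more on the log2 scale among the 4 receptors that could be compared. The same size was reached by 9.45% of all 13973 genes, and 8.95% were lower by as much. Sstr5 differed by 0.62 and Sstr4 by 0.39, each from 1 Sst-high cell, and Sstr3, too low in the prefix to be compared, was in 0 of 4 and 0 of 11 cells. Without cell 14 the difference of Sstr1 was 0.80 and that of Sstr5 was -0.01. Over all 4 left-out cells the difference ranged from 0.80 to 2.82 for Sstr1 and from 1.20 to 2.97 for Sstr2. With a pseudocount of 10 FPKM the differences were 0.90 and 0.85.

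**Figure D3:**
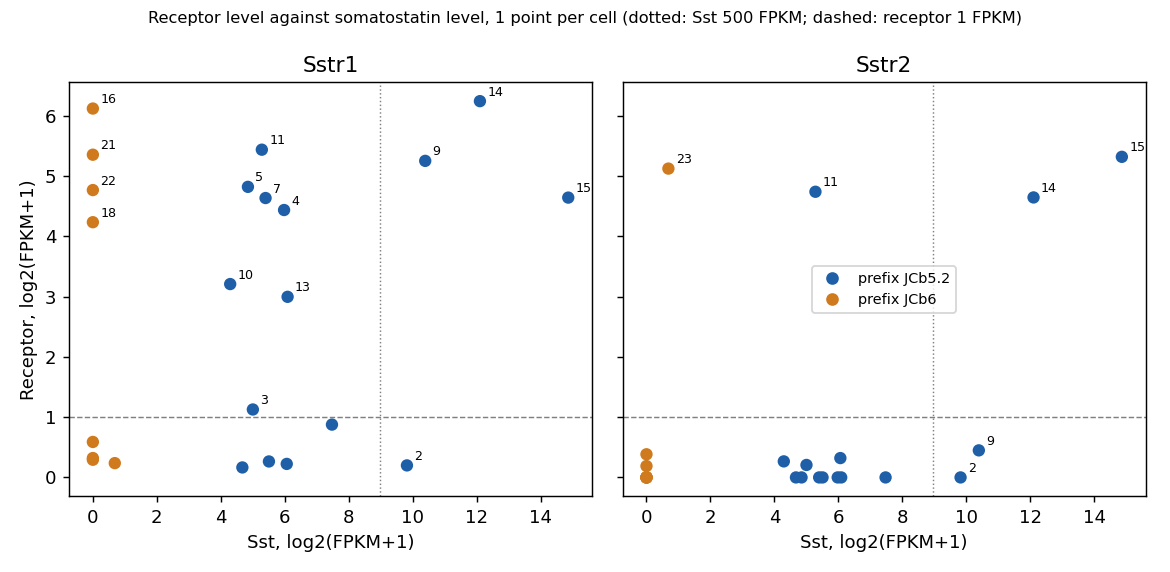
Sstr1 (left) and Sstr2 (right) against Sst, both as log2(FPKM + 1), with 1 point per cell coloured by prefix; the dotted line marks 500 FPKM of Sst and the dashed line 1 FPKM of the receptor. Sstr1 was high in cells with and without Sst, and Sstr2 was high in the 2 cells of highest Sst, in cell 11 and in cell 23.

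Cells with a high level of Kiss1, which encodes kisspeptin, a peptide that drives reproductive hormone release, all had Sstr1 under 1 FPKM. This comparison was chosen after the data were seen and is a description. In the 5 cells at or above 500 FPKM of Kiss1 (cells 8, 17, 19, 20 and 23), Sstr1 was between 0.168 and 0.504 FPKM, so 0 of 5 reached 1 FPKM (0 to 52.2%) and 1 of 5 reached 0.5 FPKM. Among the other 18 cells 14 did (77.8%, 52.4 to 93.6%). Of 14874 genes, 26 (0.175%), Sstr1 among them, were under 1 FPKM in all 5 cells and at 1 FPKM in 14 or more of the others. Within prefix JCb6 the groups did not overlap: 4 Kiss1-high cells had at most 0.504 FPKM and the other 4 had 17.9 to 68.7 FPKM. Of 12514 genes found in JCb6, 2.93% were likewise lower in all 4 Kiss1-high cells than in any other. The same 26 genes made up 0.465% of the 5588 genes found in at least as many cells as Sstr1 over both prefixes. Both shares take their cut-off from Sstr1 itself, so they are not separate evidence. With Kiss1-high set at 50 FPKM, which added cell 21 with its 40.0 FPKM of Sstr1, 16.7% of 6 cells reached 1 FPKM of Sstr1. Without cells 20 and 23, the libraries not shown to be male, it was 0 of 3 Kiss1-high cells. Of the 5 cells, 4 had no receptor at all, and cell 23 had Sstr2 and Sstr3. Kiss1-high cells had fewer genes (4049 to 6698, median 6321), and the part of gene number in this pattern was not tested.

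**Figure D4:**
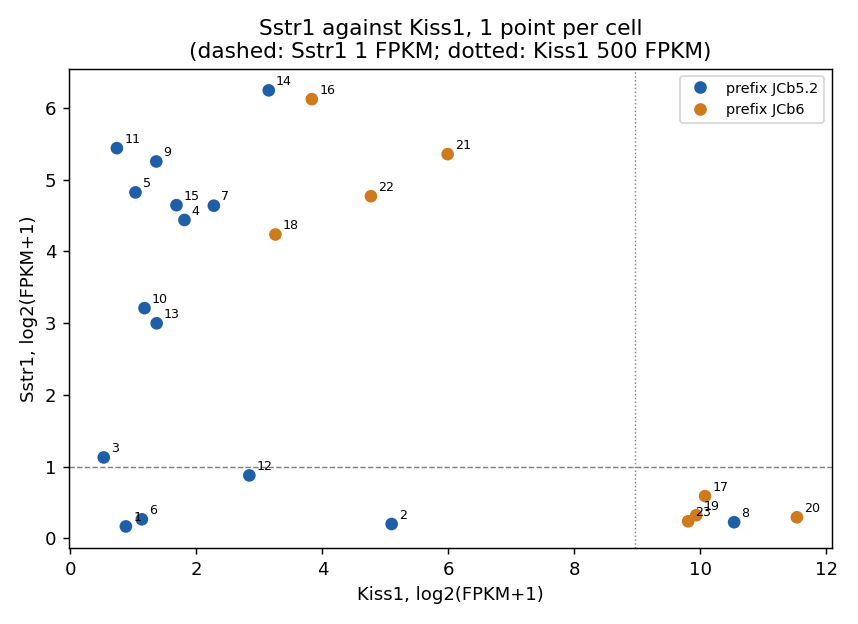
Sstr1 against Kiss1, both as log2(FPKM + 1), with 1 numbered point per cell; the dashed line marks 1 FPKM of Sstr1 and the dotted line 500 FPKM of Kiss1. All 5 cells right of the dotted line lie below the dashed line, and 14 of the 18 cells left of it lie above.

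The inhibitory G proteins that carry the receptors' signal were present in every cell. All 12 genes of this list were in at least 12 cells, against 27.7% of all genes. In all 23 cells were 7 of them, against 1682 of 23373 genes. Gnao1 and Gnai1, which encode Go and Gi alpha subunits, had medians of 82.9 and 77.6 FPKM over the 23 cells, and Gnai2 41.4 FPKM. Gnb5, a beta subunit that pairs with RGS proteins, had a median of 74.1 FPKM. None of the 12 differed by 1 or more on the log2 scale between Sst-high and other JCb5.2 cells. Of all genes, 9.45% were higher and 8.95% lower by as much.

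Genes of the channels and enzymes acted on by these G proteins varied more in the number of cells that had them. Found in 12 or more cells were 2 of 4 GIRK channel and 3 of 6 other potassium channel genes. The same held for 3 of 5 calcium channel genes and 3 of 9 adenylyl cyclases, against 27.7% of all genes. Some medians were near the threshold of 1 FPKM, and the part of expression level in these counts was not tested. Of 4 GIRK channel genes, Kcnj9 was in 17 cells (median 4.42 FPKM), Kcnj3 in 12 (1.04 FPKM), Kcnj6 in 9 and Kcnj5 in 3. Among other potassium channels, Kcnk2, a leak channel, was in 20 cells (11.1 FPKM) and Kcnma1, a calcium-activated channel, in 13. Among 5 calcium channel genes, Cacna1e was in 22 cells (8.08 FPKM), Cacna1b, the N-type channel of nerve terminals, in 22 (6.66 FPKM), Cacna1a in 14 and Cacna1d in 10. Of 9 adenylyl cyclases, Adcy3 was in 17 cells (8.76 FPKM), Adcy5, which Gi inhibits, in 14 (2.69 FPKM), Adcy6 in 12 and Adcy2 in 4.

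**Figure D5:**
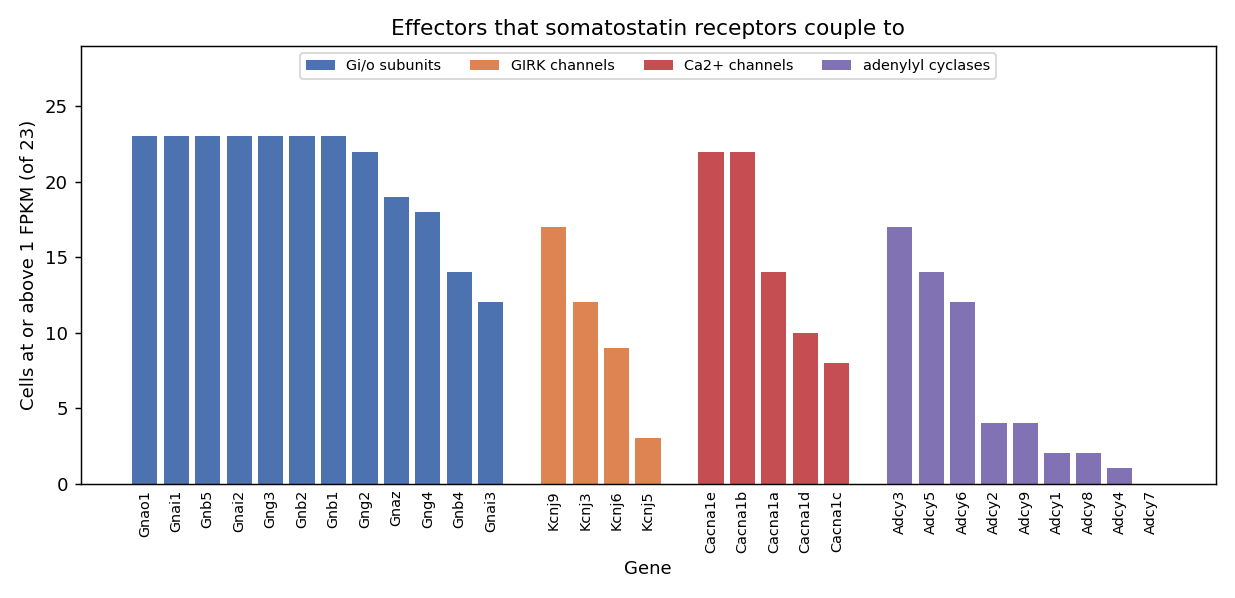
Number of cells, of 23, in which each gene of 4 lists of somatostatin receptor effectors reached 1 FPKM, with bars coloured by list. The G protein subunits were in 12 to 23 cells each, while the GIRK channels ranged from 3 to 17 and the adenylyl cyclases from 0 to 17.

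A few effector genes differed between Sst-high and other JCb5.2 cells. They are named here after their values were seen, and values are differences of mean log2(FPKM + 1). Adcy2 and Adcy5 differed by 1.42 and 1.23 and Kcnj9 by 1.05, while Kcnj3 was -1.66 and Cacna1b -1.20. Without cell 9 the first 2 were 0.82 and 0.95, without cell 15 Kcnj9 was 0.49, and without cell 14 Cacna1b was -0.92. Of the 128 genes of all pathway lists that could be compared, 10 were higher (7.81%) and 7 lower (5.47%), against 9.45% and 8.95% of all genes. Of these 17 genes, 7 kept a difference of 1 or more whichever Sst-high cell was left out. The same count was not made for all genes, so it has no background to be read against. The median difference was -0.01 for the 128 genes and -0.11 for all genes.

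Peptide processing genes were abundant. Of 13 genes, 11 were found and 8 were in every cell, against 63.6% and 1682 of 23373 for all genes. Pcsk1n, an inhibitor of prohormone convertase 1, led them (median 1052 FPKM), then the carboxypeptidase Cpe (397 FPKM). The granin Scg2 (299 FPKM) and Scg5, the chaperone of convertase 2 (169 FPKM), followed. The convertase genes Pcsk2 and Pcsk1, whose enzymes cut peptide precursors, were in 19 and 18 cells (25.1 and 8.54 FPKM), and Pcsk2 was higher in Sst-high cells by 1.82. Furin reached 1 FPKM in no cell. Of the enzymes that degrade peptides, Npepps was in all 23 cells (25.4 FPKM), Ece1, which degrades somatostatin in endosomes, in 19, Thop1 in 18 and Ide in 10, and Mme, the gene of neprilysin, in none.

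Of 18 desensitisation and scaffold genes analysed, 11 were in 12 or more cells, against 27.7% of all genes, with Rgs4, which speeds the shut-off of Gi/o proteins, in all 23 (128 FPKM), Shank1, a synaptic scaffold that binds Sstr2, in all 23 (9.76 FPKM), and Dlg4 and Rgs17 in 22 and 21. Among receptor phosphatase and kinase partners, Mapk3 and Ptpn11 were in 17 cells each and Pik3r1 in 11. Ptpn11 encodes SHP2, a phosphatase recruited by somatostatin receptors.

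Sst transcription is activated by cyclic AMP through CREB at a known promoter element, and that element was found in the windows of Sst and Sstr2. The motif searched was TGACGTCA, which reads the same on both strands, in windows of 300 bases from 250 before to 50 after each RefSeq start (GRCm38.p6). It is shown in capitals with 11 bases on either side.
Sst: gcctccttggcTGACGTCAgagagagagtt
Sstr2: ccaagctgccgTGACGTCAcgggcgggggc
The stretches lie at chr16:23890874-23890903 (minus strand) and chr11:113619258-113619287 (plus strand), and the motif starts at -48 and -58 from the start of transcription. The GENCODE transcript of Sst starts farther upstream, so that its 5′ end spans the stretch. Of 32851 windows, 588 held the motif (1.79%). The windows of Sstr3, Sstr4 and Cort did not hold these letters, and Sstr1 and Sstr5 were not searched here. A match describes the sequence and shows no binding. Of 10 CREB family and coactivator genes, all were found, against 63.6% of all genes. Crtc1 was in 23 cells (26.1 FPKM), Atf2 in 22, and Crebbp and Ep300 in 18 each. Crtc2, a coactivator of CREB, was lower in Sst-high cells by 1 or more (-1.67). It was 1 of 10 genes, against 8.95% of all genes, and no gene of the list was higher by as much. The groups overlapped in Crtc2, with 20.4 FPKM in cell 15 and a median of 11.0 FPKM in the other JCb5.2 cells.

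Of 10 genes of the growth hormone axis, 7 were found at 1 FPKM in any cell and 0 in at least 12 cells, against 63.6% and 27.7% of all genes. Prlr, the prolactin receptor, was in 9 cells, Ghrl, Ghr and Igf1r in 5 each, the ghrelin receptor gene Ghsr in 3 and Ghrh in 1. Among transcription factors tied to somatostatin neurons, 12 of 19 were found, against 63.6% of all genes. Nkx2-1 was in 22 cells (44.6 FPKM), Isl1 in 20 (20.5 FPKM) and Bsx in 14. Pknox1 differed by 1.55 in Sst-high cells, and by 0.85 without cell 15. Otp, a homeobox gene that Sst and Agrp neurons need in development, was high in cells 10 (62.6 FPKM) and 15 (17.8 FPKM) and at most 0.391 FPKM in the other 21.

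Other arcuate peptides differed in both directions. Between Sst-high and other JCb5.2 cells Npy and Agrp differed by 1.51 and 2.22, and by -0.59 and 0.43 without cell 15, so the direction of Npy rested on that cell. Cartpt differed by -2.28 and Pdyn by -1.27, the latter by -0.79 without cell 9. Cell 15 had 2660 FPKM of Npy and 433 FPKM of Agrp, and the other Sst-high cells had 3.15 to 18.5 FPKM and 1.29 to 2.87 FPKM. Cartpt ranged from 152 FPKM (cell 15) to 1793 FPKM (cell 2) in Sst-high cells and from 217 to 32793 FPKM in the other 11, so the groups overlapped.

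Among receptors of the nearest families, Mchr1 had the largest difference between Sst-high and other JCb5.2 cells. It encodes the receptor for melanin-concentrating hormone, a peptide that promotes feeding. It was at 22.9, 47.2, 22.4 and 18.9 FPKM in Sst-high cells 2, 9, 14 and 15, in 3 of the other 11 JCb5.2 cells (2.86, 36.8 and 22.9 FPKM in cells 4, 7 and 13) and listed at 0 in all 8 JCb6 cells. The difference within JCb5.2 was 3.41, and the groups overlapped. Oprl1, the nociceptin receptor, was in 21 cells (median 41.5 FPKM) and differed by 1.27 in Sst-high cells (0.76 without cell 9), and the mu opioid receptor Oprm1 was in 9 cells, none of them Sst-high (-1.89).

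Over the 15 cells of JCb5.2, the genes whose log2(FPKM + 1) was most like that of Sst among 8504 genes were Snx8, a sorting nexin (Pearson r 0.93, Spearman rho 0.84), Nrep (0.92, 0.70), Sesn2, a stress-induced sestrin (0.91, 0.66), Mgat5b, a glycosyltransferase (0.90, 0.76), and Kcnip3, a calcium-binding partner of potassium channels (0.87, 0.83). The cells share a prefix, and r was 0.31 to 0.56 for these 5 over all 23 cells. Nrep and Sesn2 reached 1 FPKM within the prefix in Sst-high cells alone. By the same measure Sstr2 was at rank 56 (r 0.62, rho 0.32) and Sstr1 at rank 847 (r 0.33, rho 0.21). For Sstr1 the closest of 9488 genes over 23 cells were Ppap2a, a lipid phosphatase (r 0.75), Dguok, a mitochondrial nucleoside kinase (0.72), and Tubgcp3, part of the gamma-tubulin complex (0.68). For Sstr2 they were Ankrd27 (0.81), Fgf22, a synapse-organising growth factor (0.75), and Tcerg1l (0.74), where r rests on 4 high cells. Leading genes over so many are high by selection, and no test was made.

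Few genes separated the 4 Sst-high cells from the other 11 without overlap: 10 were higher, besides Sst, and 22 lower, of 8505. Snx8 was at 17.6 to 53.4 FPKM in Sst-high cells and 0 to 1.79 FPKM in the others. Atp1b2, a sodium pump subunit, was at 33.7 to 67.4 FPKM against 0.141 to 24.6 FPKM, with a difference of 3.40, and Sesn2, Mmab and Nrep differed by 3.11, 3.08 and 3.00. The separation of Sesn2 lies under the 1 FPKM threshold, at 0.366 FPKM in the lowest Sst-high cell and 0.0794 FPKM in the highest other. Nrep and Sesn2 reached 1 FPKM in 4 and 3 JCb5.2 cells, all Sst-high, so they passed the filter of 3 cells through that group alone. Snx8, Nrep and Sesn2 are also among the genes most like Sst, and both lists rest on the same 4 cells. In the other direction, AW549542, Golga7, Pcdh17, Btg1 and Tppp3 differed by -3.57, -3.53, -2.12, -2.12 and -1.49. Golga7, which helps attach palmitate to proteins, was under 1 FPKM in all 4 Sst-high cells and at 2.38 to 33.9 FPKM in the others. Of the 8 neuronal markers, Meg3 and Snhg11 differed by -2.03 and -1.83 on the log2 scale, and by -0.67 and -0.50 without cell 2. Among other cell types, summed astrocyte markers were at 0.0149 to 1.61 FPKM in Sst-high cells and 0 to 166 FPKM in the others, and oligodendrocyte markers at 0.0341 to 27.1 FPKM and 0.208 to 53.4 FPKM. Tanycyte markers summed to 0.367 to 35.9 FPKM and 0.187 to 258 FPKM. Frzb among them differed by 1.76 on the log2 scale (0.99 without cell 14) and Vim by -1.47 (-0.99 without cell 2). Red blood cell genes summed to 34.4 to 440.1 FPKM and 3.45 to 622 FPKM. Of those 4 genes Hba-a1 and Hbb-b2, whose near-identical copies make their split uncertain, differed by 1.66 and 2.84 on the log2 scale, the former by 0.21 without cell 2, and their part in these differences was not tested.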

How the data were processed

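RNA of single GFP-positive neurons was amplified with SmartSeq2, per the labels' protocols. The submitters' processing notes name CASAVA 1.8, TopHat, Cufflinks and mm10. Other versions, the annotation, strand handling and filters are not given in these sources. The authors deposited FPKM values per gene and cell. Without molecular identifiers, amplified copies count as fragments, and in FPKM a very abundant transcript lowers all others in its cell.

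Of 23896 rows, 12 leftover spreadsheet rows, 286 identical copies and 27 rows with date-like names were left out, and rows of 124 symbols were summed, leaving 23373 genes. Table starts were taken to count from 0 and coordinates are given from 1. Sums of FPKM per cell ran from 379230 to 687163. Relative depth came from the spacing of values under 0.5 FPKM. The index for low values used genes that peaked at 100 FPKM or more, at most 2 cells at or above 10% of it, those cells in 1 prefix, and a locus of at least 500 bp.

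Cells are not replicates, so no test was made and no p-value computed. Intervals of shares are exact Clopper-Pearson 95% intervals for counting error alone. The log scale is log2(FPKM + 1). Genes entered the comparison of Sst-high cells if they reached 1 FPKM in at least 1 JCb5.2 cell. Likeness and separation without overlap were computed for loci of at least 500 bp with 1 FPKM in 3 or more cells and 10 FPKM in 1 or more. Genes named are the members, Cort, up to 4 genes per list found in the most cells, the 5 genes most like Sst, the 3 most like each receptor in 3 or more cells, and the 5 largest non-overlapping differences in each direction; others are named after their values were seen, and a few list genes are not reported here. The members and lists were chosen with earlier results of these data known. Proteins were not compared here, and coding bases of GENCODE transcripts were aligned in their place. The calculations of depth, index, likeness and differences were tested on simulated data. Alternatives were other thresholds, pseudocounts, rescaling, left-out cells and other splits. Software was Biopython 1.88, scipy 1.17.1, pandas 2.3.3, numpy 2.4.6 and matplotlib 3.10.9 under Python 3.11.15.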

Additional observations from a re-analysis of the deposited data

How the results depend on the processing

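No paired analysis was possible because the cells form 1 group and no test was made. Of the main results recomputed under alternatives, 192 values stayed within the main interval or moved by less than the spread over cells, and 18 did not. Intervals over 4 cells are wide, such as 19.4 to 99.4% for Sstr1, so staying within them says little. A change of sign was counted only for differences of 1 or more, those of Sstr1 and Sstr2, and 0 were counted. The smaller difference of Sstr5 went from 0.62 to -0.01 without cell 14. Among list genes, with each Sst-high cell left out in turn, an alternative chosen after the data were seen, the difference of Npy ranged from -0.59 to 2.52. At 10 FPKM, Sstr3 was counted in 0% of cells, and at 5 and 10 FPKM Sstr5 in 0%. Sstr1 was in 69.6% of cells at 0.5 FPKM, 56.5% at 5 FPKM and 47.8% at 10 FPKM. At both higher thresholds the share of Sst-high cells with Sstr4 and with Sstr5 was 0%. With a higher Sst threshold, which left out cell 2, 100% of Sst-high cells had Sstr1. Leaving out 1 Sst-high cell in turn gave shares of 66.7 to 100% for Sstr1 and 0 to 33.3% for Sstr4 and for Sstr5. With a pseudocount of 0.1 FPKM the log2 differences of Sst-high from other JCb5.2 cells were -0.49 for Sstr3, 1.09 for Sstr4 and 1.32 for Sstr5, from 1 Sst-high cell each for Sstr4 and Sstr5. Alternatives chosen after the data were seen gave 21.7% of cells with Sst at 100 FPKM, 0% with Sstr5 without cells 12, 14 and 21, 0% with Sstr3 without cell 23, and 100% with Sstr1 among the 4 JCb6 cells that were not Kiss1-high. By Spearman rank 2 of the 5 genes most like Sst were again among the leading 5, over all 23 cells 0 of 5, and without cell 15 3 of 5. Absolute depth is unknown, so the smallest level that could be detected in a cell cannot be stated.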
